A study of Mus musculus with 6 samples.

Results

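Csf1r, Csf1, Il34, Csf2ra and Csf2rb, genes of the CSF1 and GM-CSF systems, were described in mouse ovarian tumours. They were chosen by name, as the receptor that the study's drug inhibits, both of its ligands, and the chains of the receptor for GM-CSF, and all 5 of the 5 had a row among the 16344 genes of the deposited table. The tumours came from a transplantable model of high-grade serous ovarian cancer, in which syngeneic mice received the murine line 60577 by intraperitoneal injection. All animals of both groups carried such tumours for 21 days and were then given carboplatin in 3 weekly cycles. One group then received AZD7507, an inhibitor of CSF1R, by daily gavage for 84 days (n = 3 tumours), and the other received vehicle (n = 3 tumours). Tumours were taken at the humane endpoint, so a difference in time of collection cannot be told apart from treatment, and the model is a single cell line.

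CSF1R is a receptor tyrosine kinase of monocytes, macrophages and osteoclasts. Its ligands CSF1 and IL-34 share little sequence, bind the same receptor and keep macrophages alive, and many stromal, epithelial and endothelial cells make CSF1. GM-CSF acts on a different class of receptor, in which an alpha chain (Csf2ra) gives ligand specificity and a beta chain (Csf2rb), shared with the receptors for IL-3 and IL-5, carries the signal through JAK2 and STAT5. Mice have a second beta chain gene, Csf2rb2, whose product serves IL-3.

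Values are log2 RPKM, that is reads scaled by gene length and library size, normalized by the authors with cqn, which also adjusts for gene length and GC content. Levels of different genes can therefore be compared per length, and a difference of 1 is a doubling. Differences are AZD7507 minus Vehicle, with limma's standard error (SE) and 95% interval, and a gene was called at a Benjamini-Hochberg adjusted p under 0.05 over all 16344 genes. The depth of the libraries is unknown, so precision rests on the 3 tumours of each group, and the sample titles carry codes that no label explains and nothing else ties a tumour to an animal, so the p-values cover only the variation among these samples, which may be technical.

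Among markers of the labelled tissue, the cytokeratin gene Krt18 lay between 6.89 and 7.47 and the serous and mesothelial gene Wt1 between 6.13 and 6.72 in all 6 tumours, whereas Pax8, a marker of the tubal epithelium, lay between -3.89 and -2.09. Vehicle 2 and AZD7507 2 stood apart through genes of pancreatic acinar cells, whose summed RPKM was 4440 and 4866 there and at most 10.18 in the other 4 tumours. Vehicle 2 also had a high sum of osteoclast markers, with a summed RPKM of 207 over 7 measured markers of 9, against 18.6 to 23.6 in the other 5. Most of it came from Ctsk, Mmp9 and Acp5, at 6.45, 5.94 and 5.62 in Vehicle 2 on the log2 scale. Nfatc1, Atp6v0d2 and Dcstamp were also highest in Vehicle 2, at 2.07, 1.21 and 0.30. Calcr, the remaining measured marker, was not, at -1.62 against -0.004 in AZD7507 2. Whether Vehicle 2 held osteoclasts was not tested. For each of the 5 genes described here, the difference without 1 or both of these libraries is given below.

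The beta chain genes are near copies, and this bears on how their reads could be counted. Over their longest coding sequences in GENCODE M21, 2503 of 2628 aligned bases (95.2%) were identical, and the longest identical run was 242 bases. Of all 50-base windows of the Csf2rb coding sequence, 26.2% also occurred without a mismatch in a Csf2rb2 transcript, and of 100-base windows 11.0% did. Read length and the handling of reads with several matches are not given in the sources used here, so the split of reads between both genes is uncertain. The first 120 coding bases are shown because they illustrate the likeness, with the 4 bases that differ in capitals.
Csf2rb: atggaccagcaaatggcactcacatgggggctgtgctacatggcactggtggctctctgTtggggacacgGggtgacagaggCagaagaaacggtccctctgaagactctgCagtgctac
Csf2rb2: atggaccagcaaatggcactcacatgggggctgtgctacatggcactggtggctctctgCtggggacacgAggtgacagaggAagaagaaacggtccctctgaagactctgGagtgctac

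Promoter sequences of RefSeq (GRCm38.p6) were matched for Csf1, Csf2ra and Csf2rb2. None was matched for Il34 or Csf2rb, and the Csf1r promoter is not shown here. The 3 are shown because Csf2ra and the second beta chain gene Csf2rb2 were lower in every AZD7507 tumour and Csf1 was not. Neither Csf2ra nor Csf2rb2 was called. A further reason is that the myeloid factor PU.1, encoded by Spi1, binds purine-rich sites. The motif searched was GAGGAA, on both strands, and its matches (TTCCTC on the other strand) are in capitals. The 250 bases before the start site are chr3:107760470-107760719 for Csf1, chr19:61228419-61228668 for Csf2ra and chr15:78305722-78305971 for Csf2rb2, each on the minus strand and written 5′ to 3′.
Csf1: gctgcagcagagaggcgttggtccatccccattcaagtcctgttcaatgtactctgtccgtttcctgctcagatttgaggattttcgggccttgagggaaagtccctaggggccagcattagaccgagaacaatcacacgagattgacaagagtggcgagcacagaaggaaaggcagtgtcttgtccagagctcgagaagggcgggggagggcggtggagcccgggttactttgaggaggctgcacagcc
Csf2ra: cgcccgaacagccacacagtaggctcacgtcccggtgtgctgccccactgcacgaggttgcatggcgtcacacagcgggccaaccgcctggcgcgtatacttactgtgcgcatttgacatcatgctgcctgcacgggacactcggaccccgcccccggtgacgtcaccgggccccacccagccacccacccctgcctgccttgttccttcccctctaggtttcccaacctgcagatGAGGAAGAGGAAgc
Csf2rb2: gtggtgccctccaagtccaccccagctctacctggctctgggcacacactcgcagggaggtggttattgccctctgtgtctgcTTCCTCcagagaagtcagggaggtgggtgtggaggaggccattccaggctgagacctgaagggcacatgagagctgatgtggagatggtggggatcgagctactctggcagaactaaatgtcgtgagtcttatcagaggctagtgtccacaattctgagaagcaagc
The Csf2ra window holds 2 adjoining matches, the nearer starting 8 bases before the start site, the Csf2rb2 window holds 1, starting 167 bases before it, and the Csf1 window holds 0. These positions count from the RefSeq start. In GENCODE M21 the Csf2ra gene extends to 61228429, inside its window, so the positions do not hold for that start. Of all 32851 promoters in the table, 23.3% hold at least 1 match in the same 250 bases. Spi1 itself differed by -1.39 (limma adjusted p 0.32), and a role of PU.1 at these sites was not tested.

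Csf1r, the drug target, fell 6.14-fold. The gene (ENSMUSG00000024621) is protein-coding and lies on chromosome 18 from 61100598 to 61132149 on the plus strand (GRCm38, GENCODE M21), and the positions of the other genes below are from the same annotation. In RPKM it stood at 28.9, 44.3 and 24.1 in the Vehicle tumours and at 5.92, 6.85 and 3.28 in the AZD7507 tumours. Every AZD7507 tumour lay below every Vehicle tumour, and on the log2 scale the gap between the groups exceeded the range within either. On the log2 scale the mean went from 4.97 ± 0.45 to 2.35 ± 0.56 (SD, n = 3 each), a difference of -2.62 (SE 0.32, 95% interval -3.37 to -1.87, limma adjusted p 0.035). Within a library, Csf1r ranked above 90.0% to 95.7% of genes with vehicle and above 38.1% to 59.8% with AZD7507. It was the 1 of 5 members called, where 0.337% of all genes were called lower, and none of the 5 was called higher, where 0.0184% of all genes were. The call needed all 6 libraries: without any 1 of Vehicle 1, Vehicle 2, Vehicle 3, AZD7507 1, AZD7507 2 or AZD7507 3, limma's adjusted p lay between 0.067 and 0.15, at differences of -2.83 to -2.30. It was also lost without both acinar-rich tumours (-2.58, limma adjusted p 0.057) and with a constant variance prior (limma adjusted p 0.059). Osteoclasts express Csf1r too, and without Vehicle 2, the tumour with the high sum of osteoclast markers, the difference was -2.37. Bulk RNA cannot tell fewer Csf1r-expressing cells from less Csf1r transcript per cell.

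**Figure D1:**
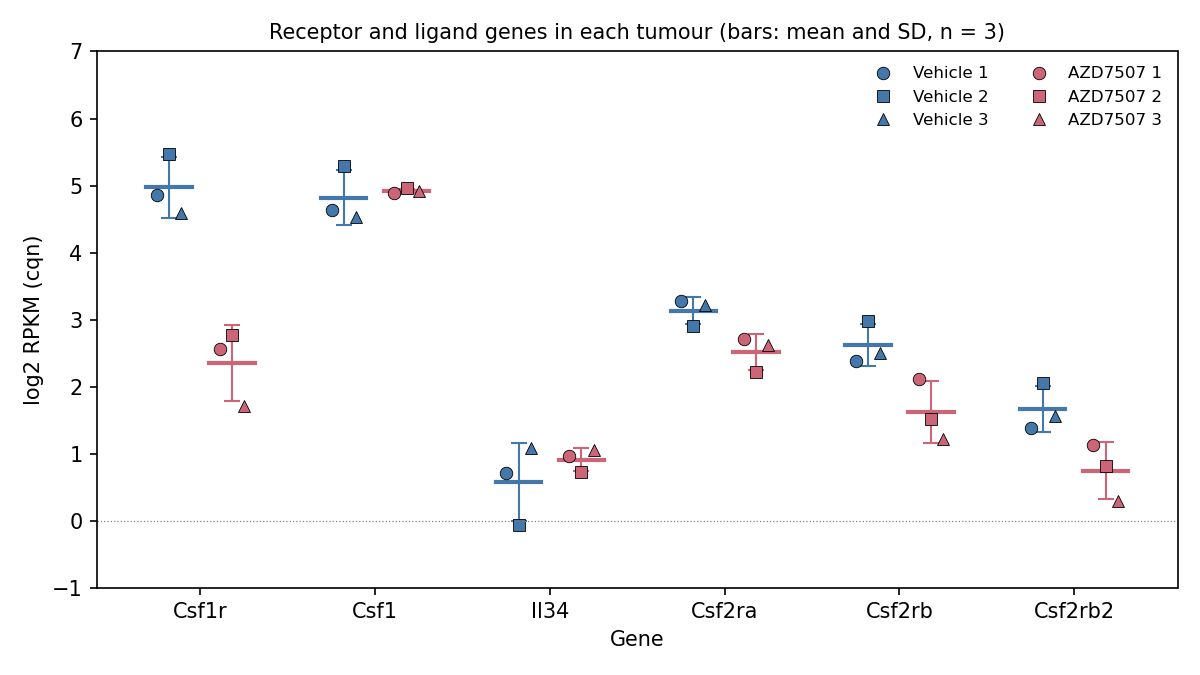
Level of each gene in each tumour, as log2 RPKM on the vertical axis, with Vehicle tumours in blue and AZD7507 tumours in red. Symbols mark the replicate, horizontal bars the mean and whiskers the SD (n = 3). The groups are apart for Csf1r, Csf2ra, Csf2rb and Csf2rb2 and overlap for Csf1 and Il34.

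Csf1, the main CSF1R ligand in these tumours by transcript, was not called. It is a protein-coding gene (ENSMUSG00000014599) on chromosome 3 from 107741048 to 107760469 on the minus strand. Csf1 stood at 24.8, 39.0 and 23.2 RPKM with vehicle and at 29.5, 31.1 and 30.2 RPKM with AZD7507. The AZD7507 tumours lay close together, above Vehicle 1 and Vehicle 3 and below Vehicle 2. The means were 4.82 ± 0.41 and 4.92 ± 0.04 on the log2 scale, and the difference of 0.10 (SE 0.20, limma adjusted p 0.93) had a 95% interval of -0.36 to 0.56. The difference depended on single Vehicle tumours. Without Vehicle 2 the difference was 0.33 (limma adjusted p 0.23), and without Vehicle 3 it was -0.041 (limma adjusted p 0.99). Vehicle 2 was also the tumour with the highest summed RPKM of the 10 fibroblast markers, 862 against 583 to 721 in the other 5, and with the high sum of osteoclast markers described above. The part of these markers in the Csf1 value was not tested.

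Il34, the second ligand, was the lowest of the 5 genes in each tumour. It is a protein-coding gene (ENSMUSG00000031750) on chromosome 8 from 110741829 to 110805924 on the minus strand. Il34 stood at 1.63, 0.954 and 2.13 RPKM with vehicle and at 1.94, 1.65 and 2.07 RPKM with AZD7507, so the AZD7507 values lay within the range of the Vehicle values. The difference of 0.33 on the log2 scale (SE 0.30, limma adjusted p 0.83) had a 95% interval of -0.38 to 1.05. It rose to 0.59 without Vehicle 3 (limma adjusted p 0.76) and shrank to 0.013 without Vehicle 2, where Il34 was lowest and where the summed RPKM of the 6 mesothelial markers was also lowest (492 against 689 to 1002 elsewhere). The part of those markers in the Il34 value was not tested. Csf1 made up 91.6% to 97.6% of the summed RPKM of both ligands with vehicle and 93.6% to 94.95% with AZD7507. That sum was 26.5, 40.0 and 25.3 RPKM with vehicle and 31.5, 32.7 and 32.3 RPKM with AZD7507.

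Csf2ra, the ligand-specific chain of the GM-CSF receptor, was lower in each AZD7507 tumour without being called. This protein-coding gene (ENSMUSG00000059326) lies on chromosome 19 from 61223957 to 61228429 on the minus strand. Csf2ra stood at 9.72, 7.46 and 9.30 RPKM with vehicle and at 6.57, 4.64 and 6.14 RPKM with AZD7507. The groups did not overlap, and within each group the second tumour, rich in acinar transcripts, was lowest. The means were 3.13 ± 0.20 and 2.52 ± 0.27 on the log2 scale, a difference of -0.62 (SE 0.17, 95% interval -1.02 to -0.22, limma adjusted p 0.29). Without both acinar-rich tumours the difference was -0.58 (limma adjusted p 0.12).

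Csf2rb (ENSMUSG00000071713), the signalling chain, is encoded on chromosome 15 from 78325752 to 78353847 on the plus strand, next to Csf2rb2 (ENSMUSG00000071714), which runs from 78282507 to 78305721 on the minus strand. Csf2rb stood at 5.24, 7.85 and 5.66 RPKM with vehicle and at 4.35, 2.86 and 2.32 RPKM with AZD7507. Here too each AZD7507 tumour lay below each Vehicle tumour, although AZD7507 1 was close to Vehicle 1. Csf2rb had means of 2.62 ± 0.31 and 1.62 ± 0.46 on the log2 scale, a difference of -1.003 (SE 0.26, 95% interval -1.61 to -0.39, limma adjusted p 0.25). The Csf2rb difference shrank to -0.78 without both acinar-rich tumours (limma adjusted p 0.27) and to -0.83 without Vehicle 2 (limma adjusted p 0.25). The paralog Csf2rb2 differed by -0.92 (SE 0.27, limma adjusted p 0.34), and the level of Csf2rb was 1.62 to 2.02 times that of Csf2rb2 over the 6 tumours. Because reads could be split between the copies, these 2 genes are not treated as separate measurements. Groups that did not overlap, with AZD7507 lower, were found for 3 of the 5 members and for 8.02% of all genes, and an unadjusted limma p under 0.05 with a lower level for the same number of members and for 5.49% of all genes. In the upward direction both counts were 0 of 5, against 7.34% and 3.31% of all genes. The 95% intervals are for single genes and carry no adjustment for the number of genes.

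**Figure D2:**
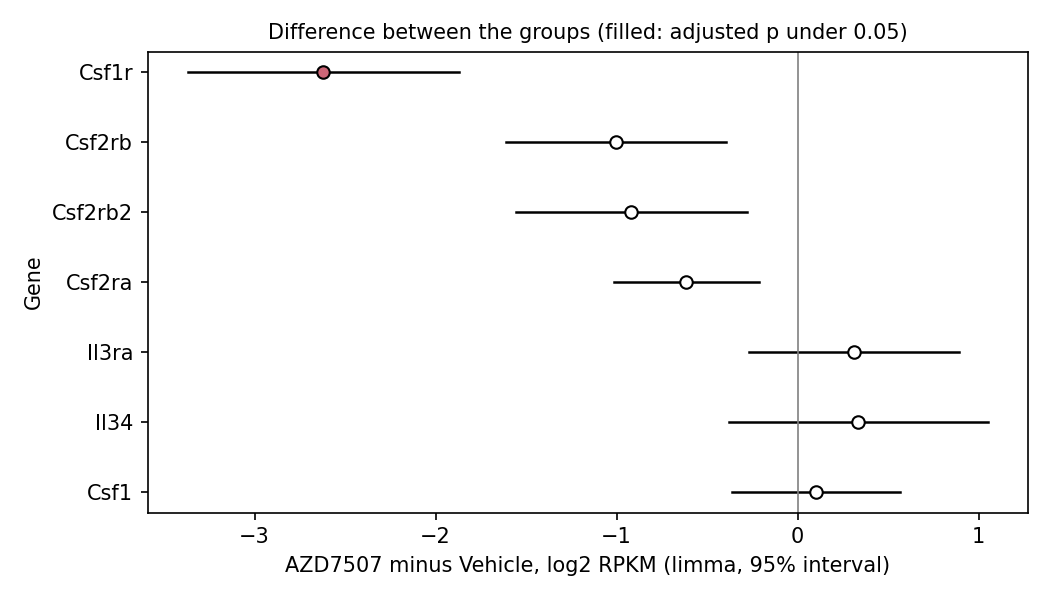
Difference between the groups for the 5 genes, Csf2rb2 and the IL-3 receptor gene Il3ra, on the log2 RPKM scale, with limma's 95% interval for a single gene as a line. Csf1r, the filled point at -2.62, is called, and the intervals of Csf1, Il34 and Il3ra include 0.

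The order of the mean levels differed between the groups. With vehicle it was Csf1r, Csf1, Csf2ra, Csf2rb and Il34. Csf1r exceeded Csf1 within each of the 3 Vehicle tumours, but only by 0.15 ± 0.08 on the log2 scale, which is less than the SD of either gene over tumours. Csf2ra and Csf2rb were not separated with vehicle, since Csf2rb was the higher of the pair in Vehicle 2. With AZD7507 the order was Csf1, Csf2ra, Csf1r, Csf2rb and Il34, and Csf2ra and Csf1r were not separated, since AZD7507 2 had them the other way round. The place of Csf2rb in both orders rests on the uncertain split of reads with Csf2rb2. The ratio of Csf1 to Csf1r in RPKM was 0.860, 0.881 and 0.961 with vehicle and 4.99, 4.53 and 9.20 with AZD7507, so ligand transcript was below receptor transcript in each Vehicle tumour and no less than 4.53 times its level in each AZD7507 tumour.

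Whether members changed by different amounts was tested on the log2 difference of a pair within each tumour, for 6 pairs. With 3 tumours against 3, the exact 2-sided permutation test cannot give a p below 0.10, so no pair could pass at 0.05. The change of Csf1r differed by -2.72 from that of Csf1 (95% interval -3.62 to -1.82), by -2.95 from that of Il34 (-4.97 to -0.94), by -2.003 from that of Csf2ra (-3.56 to -0.44) and by -1.62 from that of Csf2rb (-2.43 to -0.80). For each of these 4 pairs the groups did not overlap and the exact permutation p was 0.10, or 0.15 adjusted over the 6 pairs. The intervals of all 4 lie below 0, while the test at this number of tumours cannot reach the threshold. Csf2rb and Csf2ra overlapped, with a difference in change of -0.39 (-1.47 to 0.70, exact permutation p 0.60), as did Il34 and Csf1, with 0.23 (-1.39 to 1.85, exact permutation p 0.80).

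The receptors were also set against macrophage transcripts of the same tumour. This comparison was chosen with the values already known. The reference was the mean log2 RPKM of 14 measured macrophage markers of 15, none of them a member, which was 3.66 ± 0.50 with vehicle and 1.87 ± 0.52 with AZD7507. Its summed RPKM ran from 411 to 667 with vehicle and from 88.1 to 212 with AZD7507. The most abundant markers, Lyz2 (lysozyme), C1qa and C1qb (complement C1q), differed by -1.66, -2.56 and -2.37, and of the 14 markers 5 were called lower, against 0.337% of all genes, and all had a negative difference, with a median of -1.70, against 0.03 over all genes. Csf1r lay above this mean by 1.41, 1.24 and 1.29 in the Vehicle tumours and by 0.29, 0.73 and 0.43 in the AZD7507 tumours. Its excess over the macrophage mean was thus smaller in every AZD7507 tumour, by 0.83 (95% interval -1.22 to -0.44 for AZD7507 minus Vehicle).

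Csf2rb went the other way. It lay below the macrophage mean by values of -1.05, -1.26 and -0.80 with vehicle and of -0.15, -0.53 and -0.07 with AZD7507, a shift of 0.79 (0.25 to 1.32). Csf2ra shifted by 1.17, with an interval that includes 0 (-0.31 to 2.66). In all 3 comparisons the groups did not overlap and the exact permutation p was 0.10, the smallest that this design allows, also when adjusted over the 3. Because the groups did not overlap, leaving out 1 library could not reverse a shift. The size then ran from -0.95 to -0.74 for Csf1r and from 0.67 to 0.92 for Csf2rb. All these shifts apply to the unweighted mean of the 14 markers, whose own differences ran from -3.18 for Cx3cr1 to -0.69 for Trem2. Single markers such as Cx3cr1 and C1qc (-2.66) had larger differences than Csf1r, so Csf1r was not lower relative to each of them.

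**Figure D3:**
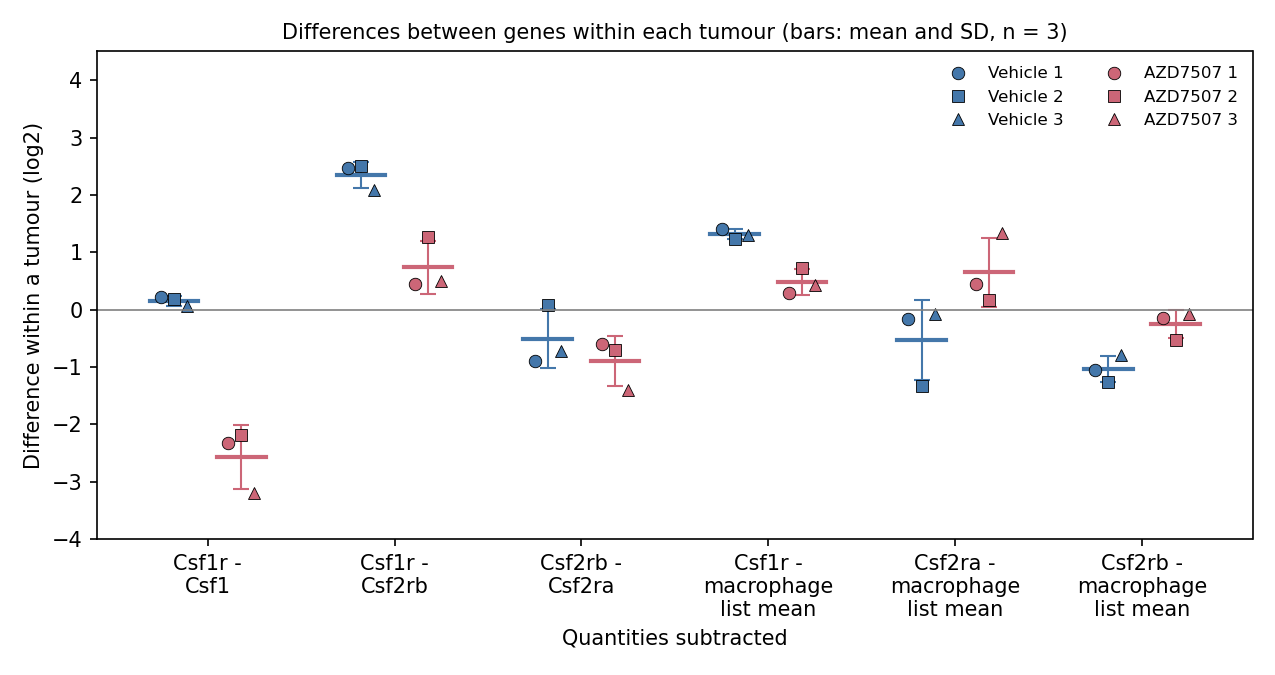
Log2 difference between 2 quantities within each tumour, with Vehicle in blue and AZD7507 in red, means as horizontal bars and SD as whiskers (n = 3). Relative to Csf1, to Csf2rb and to the mean of the macrophage markers, Csf1r is lower in every AZD7507 tumour, while Csf2rb lies nearer to that mean in the AZD7507 tumours than in the Vehicle tumours.

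The members differed in their pattern over the tumours. Likeness of pattern was measured as the root mean square difference between 2 genes over the 6 tumours, after subtracting each gene's own mean, so that a smaller value is a closer match. This measure uses the difference between the groups and is a description. The genes closest to Csf1r were C1qc at 0.058, the transcription factor gene Lyl1 at 0.14, C1qb at 0.19, C1qa at 0.20 and the endosomal RNA sensor gene Tlr8 at 0.22, whereas Csf2rb stood at 0.86, Csf2ra at 1.15, Csf1 at 1.40 and Il34 at 1.65 from Csf1r. Csf1r and C1qc differed by -2.62 and -2.66 between the groups.

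Closest to Csf2rb were the leukocyte tetraspanin gene Cd53 at 0.076, the phosphatase gene Ptpre at 0.086 and the paralog Csf2rb2 at 0.10. The closest genes to Csf2ra, ahead of its partner chain, were the adaptor gene Gab2 at 0.069, Ahnak2 at 0.073 and the small GTPase gene Rhob at 0.088, with Csf2rb at 0.43. In RPKM the ratio of Csf2ra to Csf2rb was 1.86, 0.951 and 1.64 with vehicle and 1.51, 1.62 and 2.64 with AZD7507. Csf2ra thus exceeded Csf2rb, as counted, in 5 of 6 tumours, Vehicle 2 being the exception. The ratio leaves out Csf2rb2, at 2.60, 4.15 and 2.95 RPKM with vehicle and 2.19, 1.77 and 1.22 RPKM with AZD7507. Because the split of reads between the copies is uncertain, it does not establish that the alpha chain exceeded the beta chains.

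Among the ligands, the closest genes to Csf1 were Bbs5 at 0.041, Tmem251 at 0.042 and Mdm1 at 0.048, and genes close to Il34 included Fam49a at 0.081 and Arhgap26 at 0.085. Csf1 and Il34, the 1 pair whose groups overlap for both genes, had a Pearson r of -0.76 (exact permutation p 0.11) and a Spearman rho of -0.60 (exact permutation p 0.24) over the 6 tumours. Without Vehicle 2 and Vehicle 3, the tumours farthest from the median of Csf1, r was 0.46, so the negative relation rests on those 2 tumours.

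Genes of CSF1R signalling were mostly lower or near 0. The list of 24 adaptors, kinases and phosphatases had 20 members below 0 and a median of -0.36, where 7435 of all 16344 genes were below 0. For 12 members every AZD7507 tumour lay below every Vehicle tumour, against 8.02% of all genes. By limma 0 were called, against 0.337% of all genes called lower, while 12 were lower and 0 higher at an unadjusted p under 0.05, against 5.49% and 3.31%. The smallest p belonged to haematopoietic members. Vav1, a guanine nucleotide exchange factor, was at 1.94, 2.23 and 1.86 with vehicle and at 0.79, 0.55 and 0.03 with AZD7507 on the log2 scale, a difference of -1.56 (limma adjusted p 0.053). Inpp5d, the lipid phosphatase SHIP1, differed by -1.97 (limma adjusted p 0.054) and Pik3cd, a leukocyte catalytic subunit of PI3 kinase, by -0.93 (limma adjusted p 0.068). Other members are named here after their values were seen. The adaptor gene Grb2 was at -0.02 and the kinase gene Mapk3 at -0.01. Going the other way, Cbl (-0.39, limma adjusted p 0.44) and Gab2 (-0.55, limma adjusted p 0.39) were lower in every AZD7507 tumour.

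Among 10 transcription factor genes known to act at Csf1r or with CSF1R signals, 8 had a negative difference, the median was -0.54, and 1 was called lower, against 0.337% of all genes. Irf8, a factor of monocytes and dendritic cells, was at 2.22, 2.65 and 2.34 with vehicle and at 0.89, 0.90 and 0.30 with AZD7507 on the log2 scale, a fall of 1.71 (SE 0.21, limma adjusted p 0.035). This call too was lost without any 1 of the 6 libraries (-1.81 to -1.51, limma adjusted p 0.078 to 0.15), without both acinar-rich tumours (0.081) and with a constant variance prior (0.056). Cebpa, a myeloid factor, differed by -0.98 (limma adjusted p 0.064) and Fli1, an ETS factor, by -1.25 (limma adjusted p 0.22). Of the other proteins that bind CSF1R ligands, Sdc1, a syndecan gene, differed by -0.04 and Trem2, a macrophage lipid receptor gene, by -0.69, neither of them called. Ptprz1 had no matched row and was not analysed here.

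**Figure D4:**
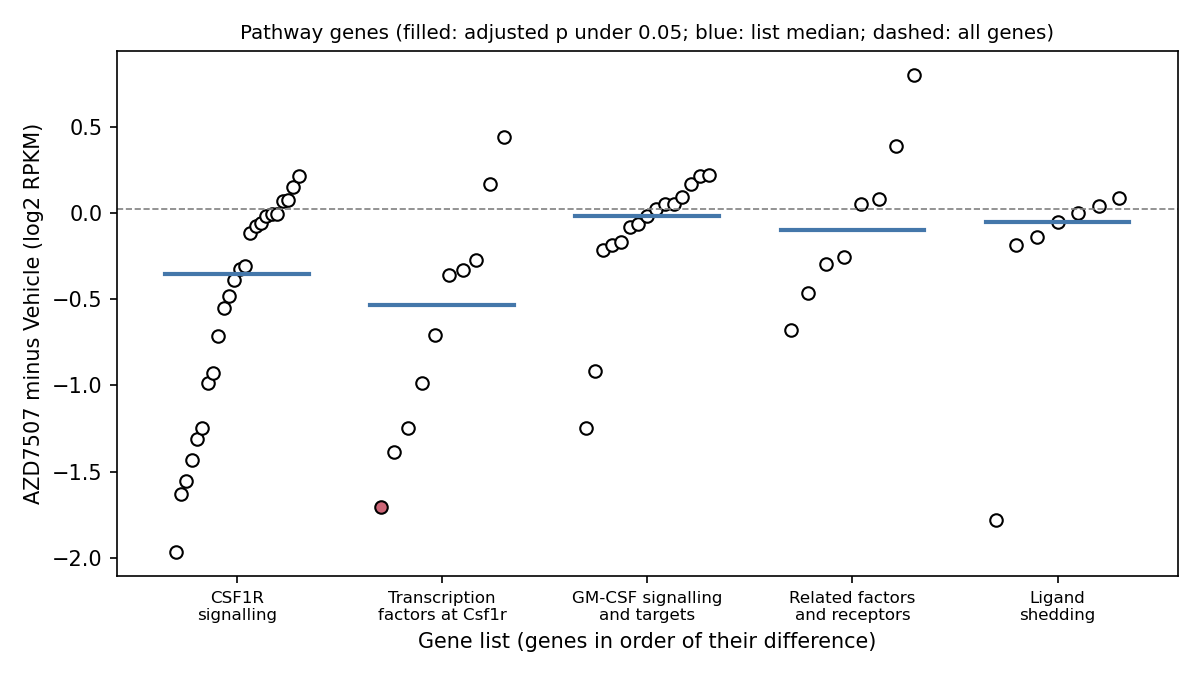
Difference between the groups on the log2 RPKM scale for each measured gene of 5 lists, in order of its value within the list, with the list median in blue and the median of all genes as a dashed line. Irf8, the filled point among the transcription factors, is called, and the GM-CSF list lies around 0.

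Genes of GM-CSF signalling and its targets were centred near 0. Of 15 measured members of 16, 8 were below 0 and 7 above, and the median was -0.02. By limma 0 were called, against 0.337% of all genes called lower and 0.0184% called higher. At an unadjusted limma p under 0.05, 1 was lower, namely Csf2rb2, and 0 were higher, against 5.49% and 3.31% of all genes. The kinase gene Jak2 lay between 4.92 and 5.57 over all 6 tumours on the log2 scale and differed by 0.21, and Stat5a and Stat5b differed by -0.02 and -0.21. These 3 are named after their values were seen. By the fixed rule the cytokine gene Osm (-1.25, limma adjusted p 0.57) and the survival gene Bcl2l1 (-0.19, limma adjusted p 0.74) are also named. The IL-3 receptor alpha gene Il3ra was at 3.62, 2.56 and 3.22 with vehicle and at 3.42, 3.52 and 3.39 with AZD7507, and differed by 0.31 (95% interval -0.27 to 0.89, limma adjusted p 0.79). No row of the deposited table was matched to Csf2, the gene of GM-CSF itself, or to Il3, Il5 or Il5ra, so these were not analysed here.

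Related growth factors and receptors, 8 measured of 13, were divided evenly, 4 below 0 and 4 above. Here 0 were called, against 0.337% of all genes called lower and 0.0184% called higher. At an unadjusted limma p under 0.05, 1 was lower and 0 were higher, against 5.49% and 3.31% of all genes. Csf3r, the receptor gene for G-CSF on neutrophils, was at 1.002, 1.55 and 0.89 with vehicle and at 0.29, 0.60 and 0.52 with AZD7507 on the log2 scale, a difference of -0.68 (limma adjusted p 0.43). Pdgfrb, a receptor of the same kinase family as Csf1r, differed by -0.46 and Thpo by 0.80, and their groups overlapped. Neutrophil markers, 4 measured of 10 and Csf3r among them, had a summed RPKM of 3.27 to 9.88 with vehicle and 5.24 to 7.41 with AZD7507. The other 3, S100a8, S100a9 and Cxcr2, had positive differences of 0.91, 0.76 and 1.11 with overlapping groups, opposite in sign to Csf3r, and none was called. Genes for the shedding of cell-surface CSF1 and CSF1R, all 7 measured, had a median of -0.05 and 0 calls, also at an unadjusted limma p under 0.05. The shares of all genes were those given above for the related factors. Adam17, the main sheddase of both proteins, lay between 3.30 and 3.59, and differed by -0.05. Mmp9, also among the osteoclast markers above, differed by -1.78, but only Vehicle 2 was high, at 5.94 (0.05 to 1.66 elsewhere). Rhbdf1 and Timp3 differed by -0.14 and 0.09.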

How the data were processed

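RNA of 3 Vehicle and 3 AZD7507 tumours was sequenced after ribosomal RNA depletion, per the labels' protocols. The deposited values are log2 RPKM after cqn, per the name of the authors' table. BWA 0.7.15-r1140, HTSeq, mm10 and GRCm38 are named in the submitters' processing notes. No annotation release, strand setting or low-value filter is given in the sources used here. Such normalization hides a global change in RNA content.

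Symbols were matched for 16306 of 16344 identifiers. The treatment label defined the groups, and replicate numbers follow record order. The values were tested as deposited in limma 3.58.1 (R 4.3.3) with a trended, robust variance prior and Benjamini-Hochberg adjustment, 2-sided, after a test on simulated data. Exact permutation tests used SciPy 1.17.1, and intervals of within-tumour differences used the pooled spread with 4 residual degrees of freedom. Coding sequences were aligned with Biopython 1.88. The members and gene lists were chosen with earlier results of these data known. Named genes were the members, the 3 with the smallest p from each pathway list and any called, receptor and ligand genes of the GM-CSF family, the most abundant markers, and the closest patterns (5 for Csf1r, 3 for others) among genes with a mean log2 RPKM of at least 0, leaving out unnamed models. Other genes were named after their values were seen. A gene selected by these criteria is not reported here.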

Additional observations from a re-analysis of the deposited data

How the results depend on the processing

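The fits were repeated with quantile normalization, array weights, centring on the median, a constant prior, pseudocounts of 0.1 and 1, only genes averaging at least 0, and without both acinar-rich tumours or each tumour in turn. The deposited values already had nearly the same distribution in each tumour, with medians of 2.3166 or 2.3170. Quantile normalization and centring could therefore change little and are weak checks. Csf1r kept its direction in all 14, but limma's adjusted p rose above 0.05 with the constant prior (-2.62, adjusted p 0.059), without both acinar-rich tumours (-2.58, 0.057), and without any 1 tumour (-2.83 to -2.30). The Csf1 difference ran from -0.041 to 0.33 and that of Il34 from 0.013 to 0.59 without 1 tumour, and Il34 relative to Csf1 from -0.32 to 0.63, and was -0.21 without both acinar-rich tumours. Csf2ra and Csf2rb stayed negative and not called in all 14. The 4 comparisons of Csf1r with other members kept their direction in all 10 alternatives run for them, as did the 3 comparisons with macrophage markers. The groups do not overlap for Csf1r, Csf2ra, Csf2rb or these comparisons, so leaving out tumours could not have reversed their direction. Over all genes 55 were called lower and 3 higher. These numbers were 143 and 14 with array weights, 13 and 1 without both acinar-rich tumours, and 0 to 14 and 0 without 1 tumour (606 to 1359 lower and 257 to 1082 higher at an unadjusted limma p under 0.05), and 1 was called higher with the constant prior. No paired analysis was possible because the labels give no replicate numbers. Without read counts, no counting error can be given, and values near or below 1 RPKM, such as Il34 in Vehicle 2, may rest on few reads.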
